A study of Mus musculus with 2 samples.

Results

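The genes described here encode the presynaptic vesicle release machinery: the proteins that load, dock, prime and fuse transmitter vesicles at nerve terminals. The list held 35 named members, and all 35 matched 1 row each among the 43346 Ensembl gene rows of the deposited tables. The study sequenced polyadenylated RNA of E11.5 mouse embryos (strain C57BL/6J, embryonic day 11.5), taken from their central nervous system. It held 1 group of 2 strand-specific paired-end libraries, biological replicates 1 and 2, each from pooled littermates of both sexes. No mutation, treatment or second age was part of the design, and the labels give no boundary for the dissected tissue. With 1 group, no contrast between conditions exists, so values are given per library and no p-value is reported. Nothing in the labels says whether the replicates came from separate litters, so an SD over n = 2 measures only the spread between these 2 samples.

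A synaptic vesicle fuses when the SNARE proteins on the vesicle (Vamp1, Vamp2) and on the plasma membrane (Stx1a, Snap25) zip into a bundle. Synaptotagmins and complexins make that step depend on calcium, and Nsf with its adaptors Napa and Napb takes the spent bundle apart. Rims, Unc13 proteins, Bsn and Pclo organise the active zone, the patch of membrane where vesicles dock and are primed. In the mouse the neural tube at this stage holds dividing progenitors beside young neurons that are extending axons, and most synapses form later.

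Replicate 1 held 126358805 expected counts and replicate 2 held 111687579, and the 35 members together took 0.137% and 0.124% of the counts on Ensembl genes. Levels are in TPM, a unit scaled for transcript length and library total that allows genes to be compared. At least 1 TPM in both libraries was reached by 32 of the 35 members, against 60.8% of 21474 protein-coding genes. The 3 below that level in replicate 1 were Doc2b, Sv2b and Sv2c. The median over the members was 9.28 TPM in replicate 1 and 9.54 TPM in replicate 2, and the median of their mean TPM was 8.78, against 5.29 over protein-coding genes. The members spanned 0.77 to 113 TPM in replicate 1. At least 10 TPM in both libraries was reached by 14 members. Napa, Vamp2 and Syt11 alone made up 43.3% and 46.8% of the members' summed TPM. The order of the members was alike in the 2 libraries (Spearman's rho 0.969 across 35 genes, which share both libraries and are not independent replicates). In whole-tissue RNA, fewer cells of a type and less RNA per cell cannot be told apart, and this holds for each level and ratio below.

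**Figure D1:**
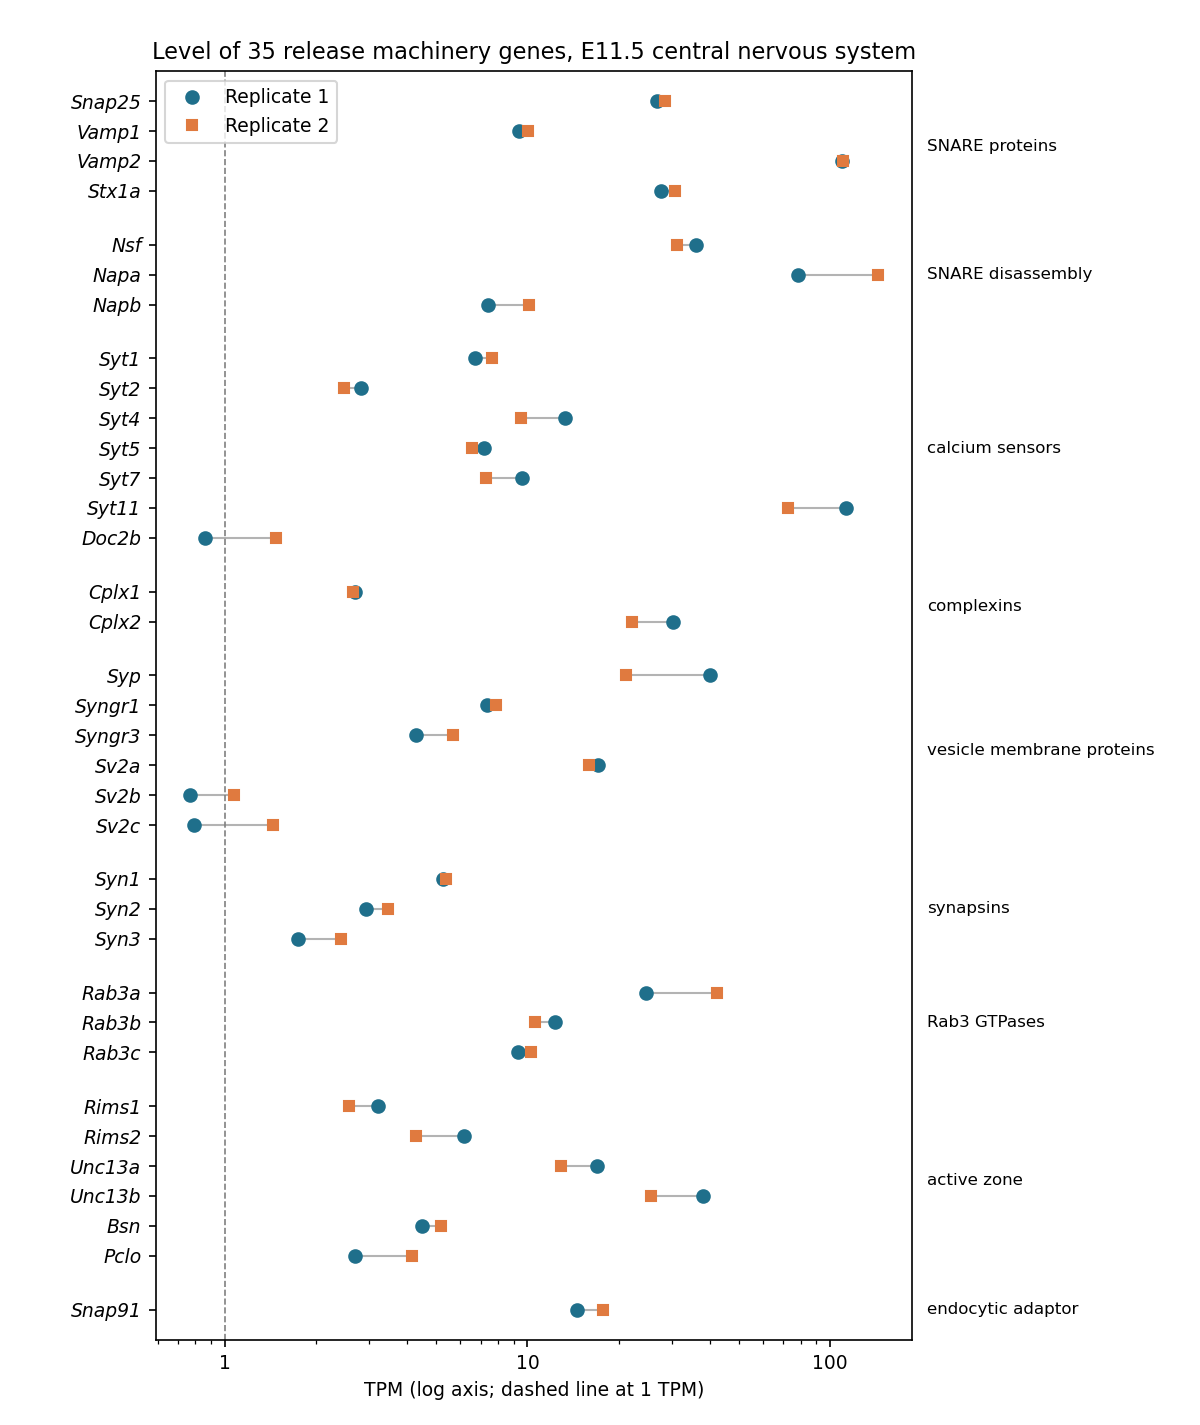
TPM of each of the 35 members on a log axis, with replicate 1 as circles and replicate 2 as squares, grouped by role. Vamp2, Napa and Syt11 lie farthest to the right, and the 3 members that cross the dashed line at 1 TPM are Doc2b, Sv2b and Sv2c.

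Of the SNARE proteins, the vesicle SNARE Vamp2 stood highest, at 109 TPM in replicate 1 and 110.2 TPM in replicate 2. Its relative Vamp1, which serves the same step mainly in spinal cord and brainstem of the adult mouse, had 9.41 and 10.1 TPM. The level of Vamp2 was thus 11.6 and 10.9 times that of Vamp1. The plasma membrane SNARE Stx1a had 27.6 and 30.8 TPM, and Snap25 had 26.8 and 28.5 TPM (27.6 ± 1.20, SD, n = 2). These 4 genes differed little between the libraries: their log2 ratios, replicate 1 over replicate 2 after scaling of the counts, lay between -0.02 and 0.12, and on log2(TPM + 1) all 4 were below 0.

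Snap25 (ENSMUSG00000027273.9, chr2:136713453-136782428 on mm10, plus strand) is spliced with either of a pair of mutually exclusive exons, 5a or 5b, which encode the cysteine-rich part that anchors the protein to the membrane. In mouse brain the 5a form is known as the early form and the 5b form as that of the mature brain. Both exons are 118 bases long and coding, with 5a at chr2:136769743-136769860 and 5b at chr2:136770057-136770174, 314 bases farther along. They are shown because the split of Snap25 RNA is read from them, with capitals at the 31 bases that differ (GENCODE M21 transcripts, mm10).
Snap25 exon 5a: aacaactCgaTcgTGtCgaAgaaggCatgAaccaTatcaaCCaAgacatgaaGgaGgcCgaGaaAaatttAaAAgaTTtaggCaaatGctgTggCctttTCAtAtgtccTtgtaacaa
Snap25 exon 5b: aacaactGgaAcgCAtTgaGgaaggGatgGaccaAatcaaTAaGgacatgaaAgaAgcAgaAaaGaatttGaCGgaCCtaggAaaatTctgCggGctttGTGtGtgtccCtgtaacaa
Of the 38 whole codons in the exon, 9 code for another amino acid.

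The 5b form was the more abundant by each of 3 readouts. The transcript with exon 5a had 6.96 TPM in replicate 1 and 4.41 TPM in replicate 2, or 26.0% and 15.5% of the gene's TPM (mean 20.7%, SD 7.42, n = 2). The transcript with exon 5b had 19.8 and 24.0 TPM, or 73.8% and 84.2%. Replicate 1 held the larger 5a share. These transcript models also differ at their ends: the last exon is 277 bases in the 5a transcript and 1354 bases in the 5b transcript. Shares of transcript TPM therefore mix the choice of exon 5 with the choice of 3′ end.

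Reads that cross the exon junctions bear on exon 5 alone. They come from the deposited mm9 junction list, which gives 2 read counts per junction and no label ties these to the numbered replicates. They are named here as the first and the second mm9 value. In the first mm9 value, 150 of 743 reads joined to exon 5a, a share of 20.2% (exact 95% binomial interval 17.4 to 23.3%). In the second, 129 of 401 reads did, a share of 32.2% (27.6 to 37.0%). These intervals, like all below, cover counting error only. With the reads of both sides summed as if independent, the 2 intervals do not overlap. On the upstream junctions alone they overlapped (16.6 to 23.1% and 22.0 to 33.2%). On the downstream junctions alone they did not (15.6 to 31.0% and 32.6 to 49.2%). Exon 5b held the larger share in both mm9 values. Over all 1144 reads the 5a share was 24.4%. It was 21.9% on the upstream junctions and 32.3% on the downstream ones. The mm9 transcript table put the 5a transcript lower, at 4.54% and 1.75% of the gene's summed RPKM.

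Stx1a (ENSMUSG00000007207.6, chr5:135023482-135051100, plus strand) encodes syntaxin 1A, the plasma membrane SNARE that Vamp2 and Snap25 join. Most of its RNA did not lie on the annotated coding transcript. The largest share was on Stx1a-204, which the annotation types as a target of nonsense-mediated decay, the pathway that degrades messages with an early stop codon. It had 17.0 TPM in replicate 1 and 15.1 TPM in replicate 2, or 61.6% and 48.8% of the gene. The coding transcript had 4.47 and 7.74 TPM, or 16.2% and 25.1%. The coding share was thus higher in replicate 2, and in each library it was below the share of the decay-typed transcript. Of the 30 members with 2 or more annotated transcripts, Stx1a was the only member whose leading transcript was not typed protein-coding.

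The 2 Stx1a transcripts part at the start of exon 9. The coding transcript uses the downstream acceptor, and Stx1a-204 an acceptor 83 bases upstream, which shifts the reading frame and brings a stop codon 7 bases into the shared exon. The stretch from the upstream acceptor to that stop codon is chr5:135048911-135049003 on the plus strand of mm10. It is shown because its first 83 bases, chr5:135048911-135048993, set Stx1a-204 apart from the coding transcript. The bases after these, with the stop codon in capitals, lie in the exon that both transcripts share.
Stx1a added stretch: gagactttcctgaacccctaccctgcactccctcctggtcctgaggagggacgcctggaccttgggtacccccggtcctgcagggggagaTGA
From the exon before it, 465 reads joined the upstream acceptor and 105 the downstream acceptor in the first mm9 value, an upstream share of 81.6% (78.1 to 84.7%). In the second mm9 value the counts were 185 and 99, a share of 65.1% (59.3 to 70.7%). Over all 854 reads the share was 76.1% (73.1 to 78.9%). The upstream acceptor held the majority in both values, which differed by more than their counting intervals. This junction was picked after the transcript shares had been seen.

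The SNARE disassembly genes all had scaled ratios below 0, although that of Nsf was above 0 on log2(TPM + 1). Nsf, the ATPase that pulls the bundle apart, had 36.1 TPM in replicate 1 and 31.1 TPM in replicate 2, with a log2 ratio of -0.13. The adaptor Napa had 78.0 and 144 TPM, with a log2 ratio of -0.58. The brain-enriched adaptor Napb had 7.41 and 10.15 TPM, with a log2 ratio of -0.26. Napa ranked first of the members by mean TPM (111 ± 46.3, SD, n = 2), but much of this lay on short transcripts typed as retained introns. Its coding transcript had 33.8 and 57.8 TPM, 43.3% and 40.3% of the gene's TPM, yet 76.8% and 76.9% of its expected counts. The retained-intron transcript Napa-206, 495 bases long, had 2.78 TPM in replicate 1 and 30.4 TPM in replicate 2. By coding TPM alone, Napa stood below Syt11 (113 and 72.8 TPM) and Vamp2 (81.1 and 94.8 TPM) in both libraries.

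Nsf showed the same kind of split. Coding transcripts held 49.9% of its TPM in replicate 1 and 75.4% in replicate 2, while Nsf-208, typed as a retained intron, had 13.1 and 3.33 TPM. The coding level of Nsf was 18.01 TPM in replicate 1 and 23.5 TPM in replicate 2, the opposite order to its gene level. Across the 35 members, 23 had 90% or more of their TPM on coding transcripts in both libraries, and 4 had less than 75% in both. These 4 were Stx1a, Napa, Unc13a and Unc13b, or Stx1a alone when expected counts were used.

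**Figure D2:**
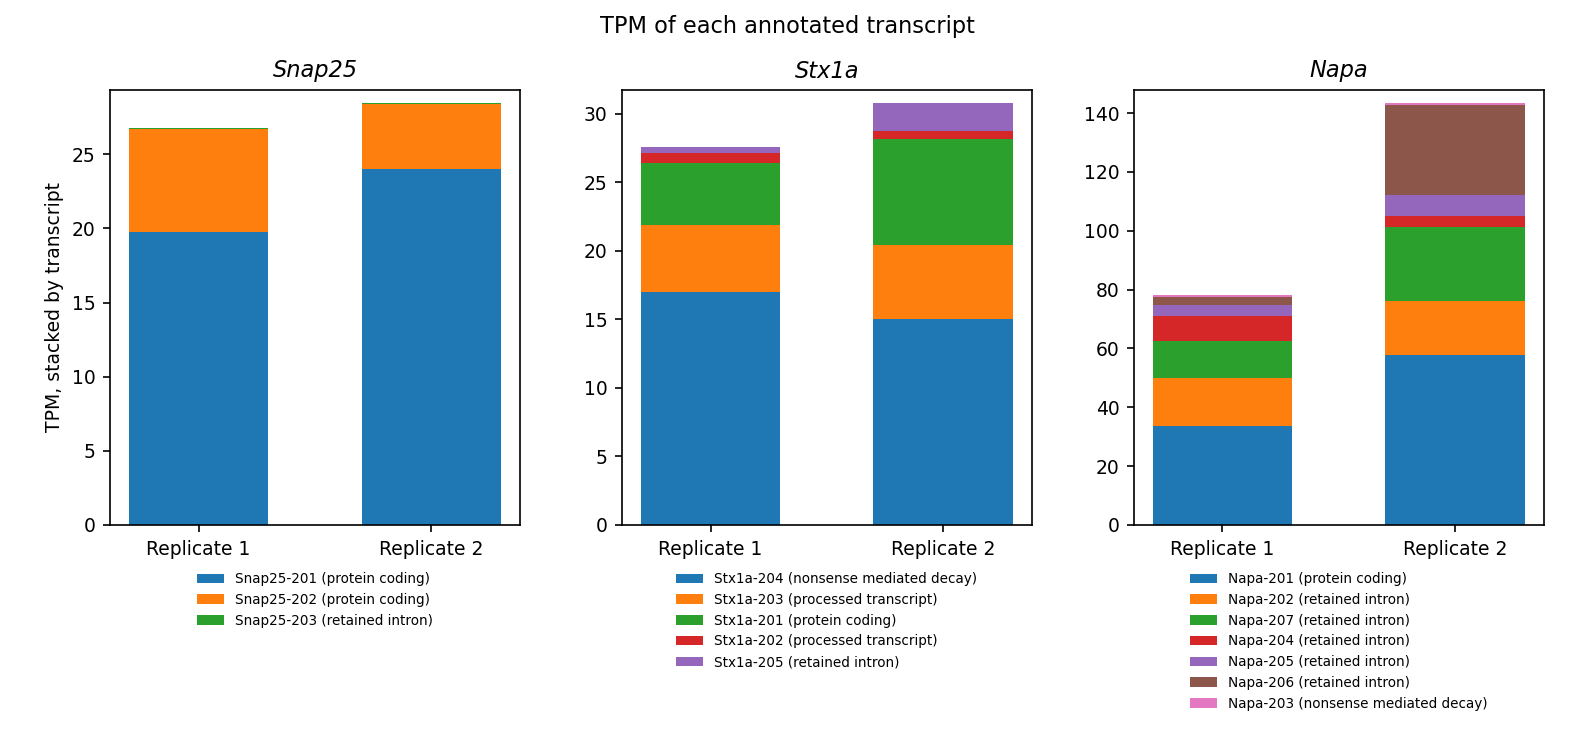
TPM of each annotated transcript of Snap25, Stx1a and Napa, stacked, with replicate 1 to the left of replicate 2. The bottom block is coding in Snap25 (19.8 and 24.0 TPM) and in Napa (33.8 and 57.8 TPM), and is the decay-typed Stx1a-204 in Stx1a (17.0 and 15.1 TPM).

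Napa and Napb share an exon of 47 bases that was skipped in part of the RNA of both genes. It lies at chr7:16112584-16112630 on the plus strand in Napa and at chr2:148707159-148707205 on the minus strand in Napb, and is coding in each. The 2 copies are shown because the paralogs share the exon and its skipping, with capitals at the 14 of 47 bases that differ.
Napa 47-base exon: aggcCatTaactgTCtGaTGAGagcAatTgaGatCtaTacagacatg
Napb 47-base exon: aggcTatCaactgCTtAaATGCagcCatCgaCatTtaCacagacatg
Since 47 is not a multiple of 3, leaving it out shifts the reading frame. Inclusion was 90.9% in the first and 96.5% in the second mm9 value for Napa (94.4% of all reads, interval 93.1 to 95.5%). For Napb it was 68% and 84.9% (78.4%, interval 71.9 to 83.9%). Inclusion was lower in Napb than in Napa in both values.

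Among the 7 synaptotagmin and Doc2 members, listed together as calcium sensors, Syt11 stood far above the rest. It had 113 TPM in replicate 1 and 72.8 TPM in replicate 2. Syt11 binds no calcium through its C2 domains and is known for limiting endocytosis, and it is also made outside neurons. Syt11 was the only member whose expected counts were not whole numbers, as arises when an estimate splits reads between genes. Syt1, the fast sensor of most forebrain synapses, had 6.72 and 7.62 TPM. The level of Syt11 was 16.8 and 9.55 times that of Syt1. Syt2, the fast sensor of many hindbrain and spinal synapses, had 2.81 and 2.48 TPM.

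Syt4, which is tied to dense core vesicles, had 13.3 TPM in replicate 1 and 9.54 TPM in replicate 2. Syt5 had 7.19 and 6.56 TPM, and Syt7, the slow high-affinity sensor, had 9.59 and 7.32 TPM. All 3 were higher in replicate 1 on this scale. Doc2b, a sensor linked to spontaneous release, was lowest of this group at 0.86 and 1.48 TPM. After scaling, 6 of the 7 members of this list had ratios above 0, with Doc2b as the exception (log2 ratio -0.60). On log2(TPM + 1) that of Syt1 was below 0 as well. Syt2 and Syt11 each had a log2 ratio of 0.75, and Syt4 of 0.68, while that of Syt1 was 0.02.

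Complexins clamp the partly zipped SNARE bundle and then promote its fusion. Cplx2 had 30.3 TPM in replicate 1 and 22.2 TPM in replicate 2, and Cplx1 had 2.70 and 2.65 TPM. Cplx2 was 11.2 and 8.39 times as high as Cplx1.

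Of the vesicle membrane proteins, Syp was highest. Syp (ENSMUSG00000031144.11, chrX:7638471-7653256, plus strand) encodes synaptophysin, a tetraspan protein and the standard histological marker of synaptic vesicles. It had 40.1 TPM in replicate 1 and 21.1 TPM in replicate 2 (30.6 ± 13.4, SD, n = 2), from 7211 and 3243 expected counts. The scaled fold, replicate 1 over replicate 2, was 2.18 (2.09 to 2.27). The tetraspan relatives Syngr1 and Syngr3 had 7.35 and 7.87 TPM and 4.30 and 5.67 TPM. Sv2a, the vesicle glycoprotein that binds the drug levetiracetam, had 17.0 and 15.9 TPM.

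Its paralogs Sv2b and Sv2c were near the lower limit. Sv2b had 0.77 TPM in replicate 1 and 1.07 TPM in replicate 2, from 350 and 413 expected counts. Sv2c, which in the adult brain is enriched in basal ganglia, had 0.79 and 1.44 TPM, from 216 and 412 expected counts. Both were detected in each library, and both were higher in replicate 2. Sv2c had the lowest ratio of all members, a log2 ratio of -0.96, with a fold of 0.513 (0.433 to 0.606) that spans the 2-fold mark.

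Synapsins tether vesicles to each other in the reserve pool, and all 3 stood below the median of the members. Syn1 had 5.25 TPM in replicate 1 and 5.40 TPM in replicate 2, Syn2 had 2.94 and 3.47 TPM, and Syn3 had 1.74 and 2.42 TPM. The order Syn1, Syn2, Syn3 held in both libraries. By TPM, Syn2 was the only member whose leading transcript differed between the libraries: the transcript of 3343 bases held 51.0% of its TPM in replicate 1 and 40.3% in replicate 2, where that of 3854 bases held 59.7%. By TPM, the leading transcript was the same in both libraries for 29 of 30 members with more than 1 transcript. By expected count, which weights by length, Syn2 kept its leading transcript and Rims1 was the exception, its transcript with the largest share holding 39.4% in replicate 1 and a different one 31.8% in replicate 2.

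Syn1 and several other members are textbook targets of the repressor REST, which holds neuronal genes silent in progenitors and in non-neural cells. Rest itself had 16.4 TPM in replicate 1 and 24.0 TPM in replicate 2, 3.11 and 4.44 times the level of Syn1. Its binding was not measured here.

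Rab3 GTPases sit on vesicles and bind Rims at the active zone. Rab3a, the main neuronal form, had 24.6 TPM in replicate 1 and 42.3 TPM in replicate 2. Rab3b had 12.3 and 10.6 TPM, and Rab3c had 9.28 and 10.3 TPM. Rab3a was highest in both libraries. Its log2 ratio was -0.58, against 0.24 for Rab3b and 0.05 for Rab3c.

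In the active zone group, the priming factor Unc13b was highest, at 37.9 TPM in replicate 1 and 25.5 TPM in replicate 2. Unc13a, the main priming factor of the adult forebrain, had 17.0 and 12.9 TPM. The level of Unc13b was 2.22 and 1.98 times that of Unc13a. On coding transcripts the levels were 23.7 and 15.9 TPM for Unc13b and 12.6 and 8.25 TPM for Unc13a, in the same order.

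The scaffolds were lower. Rims2 had 6.17 TPM in replicate 1 and 4.27 TPM in replicate 2, and Rims1 had 3.21 and 2.57 TPM. The giant scaffolds had 4.48 and 5.20 TPM for Bsn and 2.69 and 4.15 TPM for Pclo. Bsn shares exon sequence on the same strand with Gm47303, a gene annotated in GENCODE M21. The expected counts of Bsn were whole numbers in both libraries (3799 and 3624). Unc13b and Rims2 had the largest ratios of the group, with log2 ratios of 0.77 and 0.73, and Pclo had the only scaled ratio below 0, at -0.34, joined by Bsn on log2(TPM + 1). Snap91, the clathrin adaptor AP180 that retrieves vesicle membrane, had 14.6 and 17.8 TPM.

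An exon choice was counted where at least 50 reads bore on an exon of at most 300 bases with at least 10 reads on each junction, a rule set after the values had been seen. It gave 28 distinct exons in 12 members, and 22 of its 33 events had a length that is a multiple of 3. Described here are the 19 exons of the mm9 Ensembl gene models, in 11 members. Of these, 15 had a length that is a multiple of 3 and 9 lay in active zone members. The same shares were not counted over other genes. Where an exon had more than 1 skipping junction, the event with the most reads was used. Each event counted 1 skipping junction, and reads on any other skipping junction of the exon were left out. In the pooled reads 8 of the 19 were included in under 50% and 5 in 90% or more. The 27-base exon of Pclo was included in 20% of the first and 57.3% of the second mm9 value (40% of all reads, interval 28.5 to 52.4%). A 36-base exon of Unc13b was included in 20.9% and 25.2% (21.9%, interval 18.7 to 25.5%), and a 57-base exon of the same gene in 9.04% and 15.8%.
The exons of 27 and 36 bases are shown since each adds a few codons to a scaffold or priming protein. They lie at chr5:14778539-14778565 in Pclo and at chr4:43161443-43161478 in Unc13b, both on the plus strand and coding.
Pclo 27-base exon: tcaagtcatggttgtccagaatgcaag
Unc13b 36-base exon: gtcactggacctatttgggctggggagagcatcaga
The 30-base exon of Unc13a was included in 56.6% and 61%, close to even. In Rims1, exons of 69 and 81 bases were included in 29.3% and 50% and in 7.25% and 59.6%. Both exons were set against the same 64 and 18 skipping reads, so these are not 2 independent choices. The value of the 81-base exon depended on the skipping junction it was set against. With only the other one counted, it was 21.2% and 53.5%. In the first mm9 value its flanking junctions had 0 and 10 reads, beside 64 skipping reads. In Rims2, the exon of 180 bases went the other way, at 82.2% and 60.3%. The 3 Snap91 exons, of 84, 84 and 15 bases, were included in 81.3% to 95.2% of each value. Syt7 included its 132-base exon in 21% and 41.5% against its annotated skipping junction, and in 63.8% and 92.7% against another. Each pair of values leaves out reads on the other skipping junction, so neither gives the inclusion over both. In the second mm9 value the 41.5% rests on flanking junctions of 51 and 3 reads beside 38 skipping reads. The 92.7% rests on 51 and 0 reads beside 2 skipping reads.

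**Figure D3:**
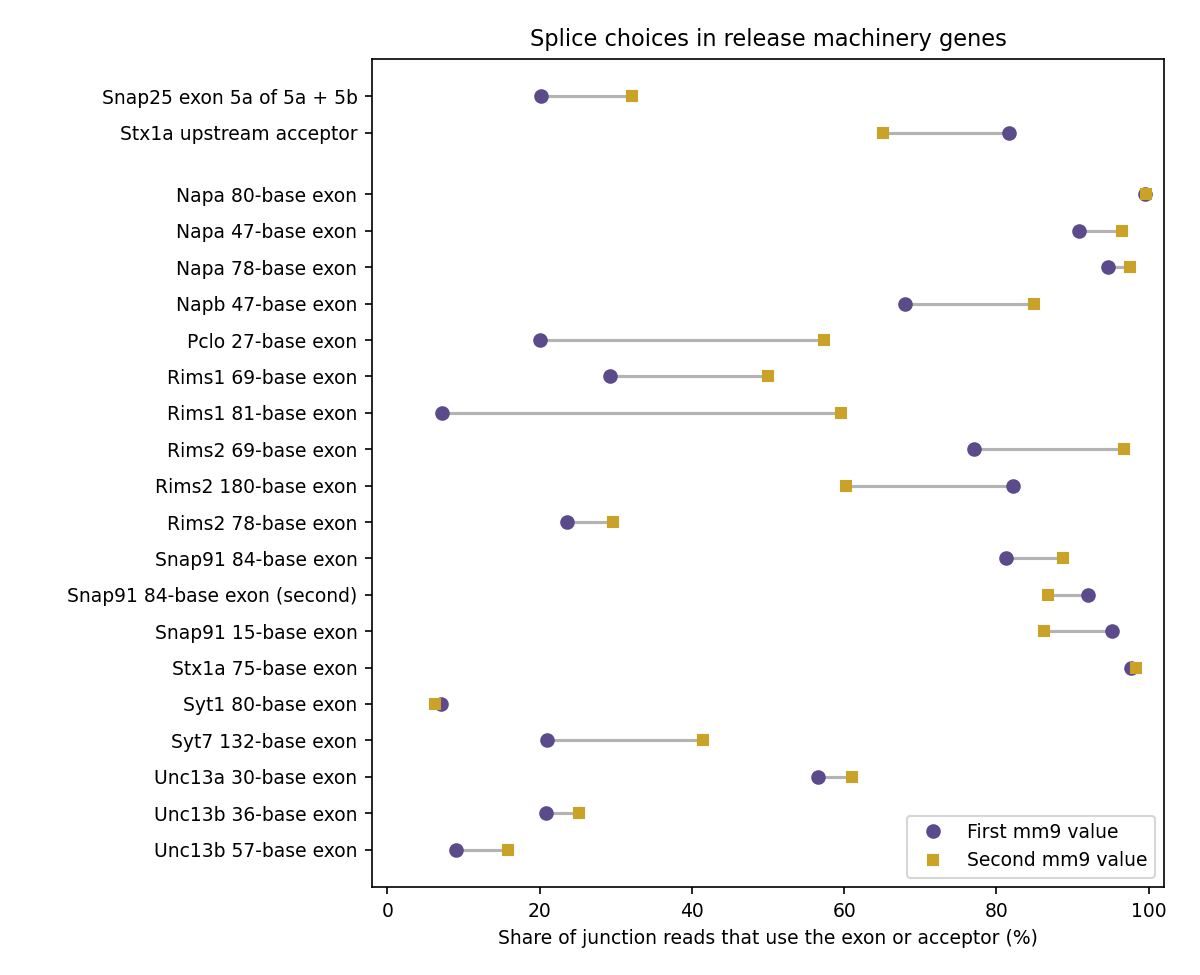
Share of junction reads that use each alternative exon or acceptor, in percent, with the first mm9 value as circles and the second as squares. The top rows give Snap25 exon 5a (20.2% and 32.2%) and the Stx1a upstream acceptor (81.6% and 65.1%), and the 19 exons below run from 6.29% for Syt1 to 99.7% for Napa.

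Between the libraries, 1 of the 35 members was 2-fold or more apart, Syp, which was higher in replicate 1. Its mm9 junction reads, scaled by all junction reads, gave a ratio of 1.04 for the first value over the second. Among 16511 genes with at least 100 counts, 11.4% were 2-fold apart in either direction, 5.05% with the higher value in replicate 1. Within 1.5-fold lay 26 members, and 9 of the 35 were 1.5-fold or more apart, against 29.1% of all genes. The ratio was above 0 for 22 of the 35, against 50.6% of all genes, with a median log2 ratio of 0.05 against 0.01. On deposited TPM in place of scaled counts, 15 of the 35 were above 0, and the median over all genes was -0.12. The members higher in replicate 1 by 1.5-fold or more, Syp, Unc13b, Syt2, Syt11, Rims2, Syt4 and Cplx2, came from 4 of the 9 roles and kept their direction on log2(TPM + 1). Sv2c and Doc2b were the members 1.5-fold or more higher in replicate 2.

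**Figure D4:**
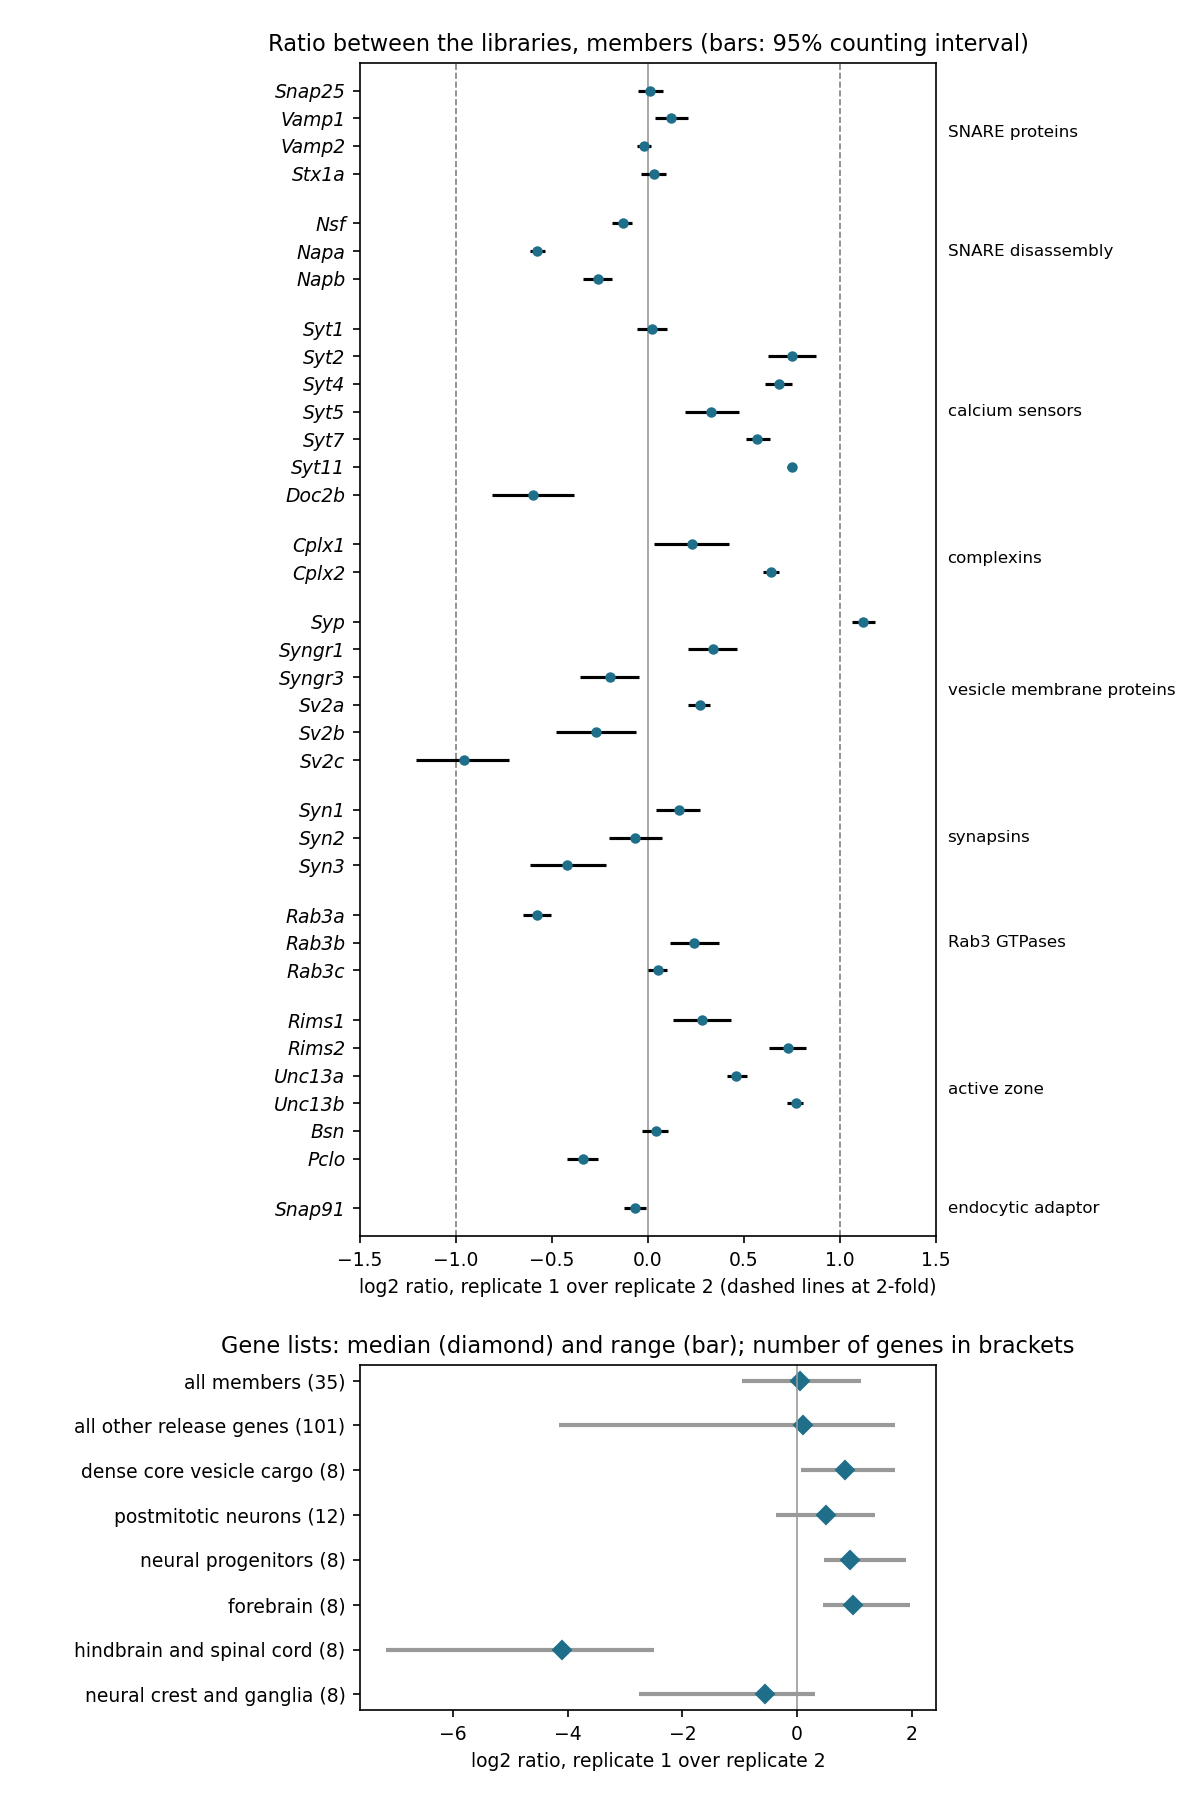
Log2 ratio of replicate 1 over replicate 2 for each member with its 95% counting interval (top), and the median and range of gene lists (bottom). Syp at 1.12 is the only member past a dashed line, while the hindbrain and spinal cord list has a median of -4.10.

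Markers of regions and of other cell types differed in level between the libraries and are given beside the ratios. All 8 hindbrain and spinal cord markers, which are Hox genes, were 2-fold or more higher in replicate 2 (median log2 ratio -4.10), their summed level being 9.59 TPM in replicate 1 and 187 TPM in replicate 2. All 8 forebrain markers had ratios above 0 (median 0.97), with 366 and 229 TPM in sum. The 8 progenitor markers did too (median 0.93, sums of 3954 and 1969 TPM), as did 10 of 12 markers of postmitotic neurons, or 11 on log2(TPM + 1) (median 0.51, sums of 2414 and 1760 TPM). Of 6 muscle markers, 5 were 2-fold or more higher in replicate 2, with sums of 252 and 560 TPM. Of 6 liver and yolk sac markers, 5 were 2-fold or more higher in replicate 1 (median 1.68, sums of 994 and 391 TPM). Of 8 neural crest and ganglia markers, 2 were 2-fold or more higher in replicate 2 (median -0.56, sums of 92.1 and 131.5 TPM). Mitochondrial genes held 1.35% and 6.78% of all TPM. Their part in the members' ratios was not tested. Tubb3, the neuronal tubulin, had 882 and 720 TPM, and Snap25 stood at 0.0304 and 0.0396 of it. All 8 progenitor and all 12 neuron markers were at 1 TPM or more in both libraries, against 60.8% of protein-coding genes. So were all 8 neural crest markers and all 6 of each erythroid, endothelium, mesenchyme, macrophage, and liver and yolk sac list. Of the other lists, forebrain had 7 of 8, hindbrain and spinal cord 6 of 8 and muscle 3 of 6. No marker of any list was at 0.

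Around the members, 105 further genes of the release cycle were listed, of which 104 matched. In both libraries 92 reached 1 TPM, a level that 60.8% of protein-coding genes reached. The highest and lowest genes of each list are given by mean TPM over both libraries. In the endocytic list 18 of 18 genes were at 1 TPM or more in both, led by the clathrin adaptor subunit Ap2m1 (333 and 428 TPM) and the clathrin light chain Clta (458 and 291 TPM), with Dnm3 lowest (3.37 and 7.11 TPM). Of other SNAREs and their partners, 16 of 17 reached it, led by Snap47 (80.2 and 90.9 TPM) and the ubiquitous Vamp3 (77.7 and 80.6 TPM), with Stxbp5l lowest (0.62 and 0.65 TPM). Vamp2 stood 1.41 and 1.37 times above Vamp3. Of other active zone proteins 18 of 20 reached it, led by Apba2 (59.1 and 41.3 TPM) and Ppfia1 (43.9 and 42.8 TPM), with Unc13c lowest (0.12 and 0.24 TPM).

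Of other vesicle proteins and Rabs 15 of 16 reached it, led by Sncg (72.7 and 111 TPM) and Dnajc5 (63.0 and 72.3 TPM), with Syngr4 lowest (0.23 and 0.75 TPM). Of other synaptotagmins and sensors 10 of 14 did, led by Cadps (16.3 and 16.2 TPM) and Syt13 (11.1 and 9.96 TPM), with Cplx4 at 0.01 and 0.02 TPM. Of transporters and the vesicle proton pump 8 of 11 did. The pump subunits Atp6v0c (265 and 368 TPM) and Atp6v1b2 (95.5 and 84.2 TPM) led that list, and Slc18a1, a vesicular monoamine transporter, was lowest by the mean (0.21 and 0.62 TPM). The median level was 40.2 TPM in replicate 1 and 53.8 TPM in replicate 2 for the endocytic genes, against 1.74 and 2.32 TPM for the other synaptotagmins and sensors.

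Among these genes 3 were 2-fold or more higher in replicate 1, where the share over all genes was 5.05%, and 3 in replicate 2, where it was 6.34%. Higher in replicate 1 were Chgb (26.6 and 9.29 TPM, log2 ratio 1.71), Cplx3 (0.80 and 0.33 TPM, 1.47) and Rims4 (1.62 and 0.90 TPM, 1.05). Higher in replicate 2 were Slc18a3 (0.13 and 2.71 TPM, -4.15), Slc18a1 (-2.01) and Lin7a (1.76 and 4.04 TPM, -1.01). Slc18a3 loads acetylcholine into vesicles and Slc18a1 loads monoamines. Chromogranin B, encoded by Chgb, is cargo of dense core vesicles. All 8 genes of dense core vesicle cargo had scaled ratios above 0, with a median log2 ratio of 0.84, and Pcsk1 alone was below 0 on log2(TPM + 1). Their highest members were Cpe (86.9 and 83.0 TPM) and Scg5 (41.6 and 24.4 TPM), and Pcsk1 was lowest (0.46 and 0.50 TPM).

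The mm9 gene table gave nearly the same order of members. Spearman's rho between the mean mm9 RPKM and the mean mm10 TPM was 0.974 across the 35 genes, and Pearson's r of log2(value + 1) was 0.969, as a description of 2 readouts of the same libraries. Syt11, Vamp2 and Napa again ranked highest, with mean RPKM of 13.5, 13.1 and 12.9. Rims1 moved most, with rank 21 on mm9 and rank 29 on mm10.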

How the data were processed

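The authors deposited, for each library, an expected count per gene and per transcript, and gave TPM and FPKM beside it, per the file headers. The build is mm10 and the annotation M4, per notes that accompany the deposited files. The rows over which TPM sums include spike-ins. Aligner: not given in the sources used here, and likewise the quantifier. The authors also deposited mm9 RPKM tables on Ensembl 65 models and an mm9 read count per splice junction. Their 2 values carry no link to a sample.

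Symbols, transcript types and exons came from GENCODE M21, and 42462 of 43346 Ensembl genes matched. The share of expected counts on Ensembl rows was 95.3% and 96.7%. Spike-ins and other rows stayed out of library sizes. Expected counts were rounded, scaled by TMM in edgeR 4.0.16 and compared as replicate 1 over replicate 2 (prior count 0.5), for genes with at least 100 counts over both libraries. The ratio was tested on simulated data. Fold and share intervals are exact 95% binomial intervals. Alternatives were DESeq2 1.42.0 size factors, log2(TPM + 1), other filters, thresholds and priors, FPKM, and each library alone. Tables were handled in pandas 2.3.3 under Python 3.11.15.

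The members and gene lists were chosen with earlier results of these data known. All 35 members are named. Of each list of further release genes, the 2 highest, the lowest and those 2-fold apart are named. The Stx1a acceptor, the alternative exons and the coding-transcript values were chosen after values had been seen. Protein sequences were not used here.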

Additional observations from a re-analysis of the deposited data

How the results depend on the processing

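No paired analysis was possible because the design holds 1 group. The count of members at 1 TPM in both libraries was 32, between 32 and 35 with either library left out, 35 at 0.5 TPM, 23 at 5 TPM, and 32 by FPKM or by coding transcripts. The median TPM of 8.78 was 9.28 to 9.54 with either library left out, 9.76 when rescaled over nuclear genes and 7.48 over coding transcripts, the last of these added after seeing the data. The mm9 RPKM were used for rank order only. The count of members 2-fold apart was 1 with DESeq2 size factors, with either other filter and with a prior of 5, 0 on log2(TPM + 1), where Syp had 0.90, and 9 at 1.5-fold, where all genes gave 29.1%. The median log2 ratio of 0.05 was -0.09 on log2(TPM + 1), a scale that moved the median of all genes to -0.12, and 0.05 to 0.14 elsewhere. Single member ratios kept their side of the 2-fold mark in 169 of 170 repeats, and Syp on log2(TPM + 1) was the exception. Repeats that changed only the count filter left each ratio as it was, so their agreement was fixed in advance. The 20.7% share of the exon 5a transcript of Snap25 was 10.2% by expected count, which weights by length, and 15.5 to 26.0% with either library left out. The exon 5a share was 32.3% on downstream junctions, and 20.2 to 32.2% with either mm9 value left out. The Stx1a upstream acceptor share was likewise 65.1 to 81.6%, added after seeing the data. The leading transcript was shared by 28 of 29 members at 1 TPM by either measure, Syn2 being the exception by TPM and Rims1 by expected count, and by 20 of 20 at 5 TPM. The causes were not tested except where stated. With 2 libraries, no spread between animals can be estimated.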

Other observations

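Regulators of neuronal splicing were all present beside the alternative exons described above. Srrm4, a known activator of neural microexons, had 15.7 TPM in replicate 1 and 14.7 TPM in replicate 2. Ptbp1, which is known to repress neuronal exons in progenitors and non-neural cells, had 144 and 341 TPM, and its neuronal relative Ptbp2 had 104 and 130 TPM. Nova1 had 14.0 and 21.7 TPM, and Nova2 had 22.0 and 13.1 TPM. Rbfox2 had 73.3 and 101 TPM, against 4 and 9.37 TPM for Rbfox1. Their part in the exon choices was not tested.

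For a few members the mm9 junction reads differed between the 2 deposited values by more than the gene levels did. Scaled by all junction reads, the first mm9 value over the second was 3.56 for Cplx2, 2.14 for Syt1 and 1.82 for Snap25, and it was 2 or more for 2 of the 35 members. It was 0.447 for Doc2b and 0.51 for Rab3a, whose scaled count ratios on mm10 were 0.661 and 0.670. The scaled count ratios on mm10 were 1.56, 1.01 and 1.01 for Cplx2, Syt1 and Snap25, and the mm9 RPKM ratios were 1.40, 1.15 and 0.757. For Syp the junction reads differed less than the gene level did. They were 1914 and 1475, a scaled ratio of 1.04, where the scaled count ratio on mm10 was 2.18 and the mm9 RPKM ratio 1.79. The mm9 values have no known tie to replicate 1 or 2.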
